A study of Mus musculus with 8 samples.

Results

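The death and TNF receptor superfamily genes described here are 9 receptors and 1 ligand, taken by symbol from a table of 34945 named genes. They are Fas, Tnfrsf1a, Tnfrsf1b, Tnfrsf10b, Tnfrsf12a, Tnfrsf21, Tnfrsf11b, Ltbr, Tnfrsf19 and the ligand Tnfsf10. All 10 symbols had a row, and 9 averaged 10 or more across the libraries and were among the 14154 genes tested. Tnfrsf11b stayed below that level.

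Poly-A RNA was sequenced from cultures of AML12, 1 established hepatocyte line from a mouse carrying a human TGF-alpha transgene, labelled wild type. In the control group (Scr), 4 cultures received a scrambled siRNA. In the silenced group (siCasp8), 4 cultures received siRNAs against Casp8. Both groups were transfected with the same lipid reagent at 40 nM siRNA and collected after 48 h. The design text calls the 4 cultures biological replicates, but how they were separated is not given in the sources used here, so p-values measure the spread between these cultures.

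Receptors of this family bind ligands of the TNF family as trimers. Those with a death domain, among them Fas, Tnfrsf1a, Tnfrsf10b and Tnfrsf21, can recruit adaptor proteins such as Fadd or Tradd, and Fadd brings in caspase-8, the initiator protease. Many members without a death domain recruit TRAF proteins and feed the NF-kB and kinase pathways. In liver, Fas and the TNF receptor Tnfrsf1a are known for their part in hepatocyte death and inflammation. Caspase-8 is the initiator protease of apoptosis through both.

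Casp8 itself was 3936, 3995, 4134 and 3825 in Scr replicates 1 to 4. In siCasp8 replicates 1 to 4 it was 1374, 1431, 1627 and 1490. The groups lay far apart, and 37.3% of the Scr mean was left. Values here and below are the normalized gene values as deposited, which have no unit of their own. They were compared between libraries on the deposited scaling, and results under other scalings are given further down. Estimated depth differed between the groups as well, at 30.7 to 51.8 M reads in Scr and 50.5 to 57.1 M reads in siCasp8, with only Scr replicate 4 inside the siCasp8 range (exact two-sided permutation p = 0.0571). All 7 hepatocyte markers examined reached a mean of 10, with sums of 118293 to 127163 in Scr and 113936 to 119340 in siCasp8. The sums rest mostly on the keratins Krt8 and Krt18, and the 7 moved apart. Alb, the albumin gene, went from a mean of 86.4 to 3626 (log2 fold change 5.38, limma adjusted p = 4.13e-12) and Ttr, transthyretin, changed by 1.46 (3.91e-09). Krt8 changed by -0.31 (limma adjusted p = 4.44e-05) and Apob by -0.25 (0.00277), while Hnf4a, Krt18 and Apoa1 were not called. Of 5 macrophage markers, Adgre1 and Clec4f were listed at 0 in every library, while the sum of the 5 was 779 to 848 in Scr and 578 to 654 in siCasp8. Csf1r alone carried that fall, from a mean of 569 to 347 (limma adjusted p = 1.43e-05), and Ptprc (134 and 152) and Cd68 (117 in both groups) were not called. The sum of 4 stellate cell markers was 8.22 to 24.99 in Scr and 27.8 to 81.8 in siCasp8. Des carried most of that rise, from a mean of 12.1 to 45.3 (log2 fold change 1.94, limma adjusted p = 0.00518). Lrat, Pdgfrb and Acta2 were too low to be tested. For 4 cholangiocyte markers the sum was 17308 to 18863 in Scr and 17094 to 18271 in siCasp8, with members that moved apart. Krt19 and Krt7 were called lower (-0.15 each, limma adjusted p = 0.0174 and 0.0474). Sox9 was called higher (0.15, limma adjusted p = 0.00635), and Epcam was too low to be tested. The sum of 4 endothelial markers was 185 to 536 in Scr and 178 to 300.2 in siCasp8. Pecam1 made up nearly all of it, with means of 304 and 224, and was not called (limma adjusted p = 0.374). Its highest value, 534.5, was in Scr replicate 1. Cdh5 was listed at 0 throughout, and Kdr and Stab2 were too low to be tested. The sum of 5 T and NK lymphocyte markers was 13.8 to 28.4 and 9.58 to 26.7. The part of depth and of these markers in the results below was not tested, apart from a fit with depth as a covariate. In bulk RNA, fewer cells of a type and less RNA per cell cannot be told apart.

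Of the 9 genes tested, 3 were called higher in siCasp8 (Fas, Tnfrsf1a, Tnfrsf1b), 3 were called lower (Tnfrsf12a, Tnfrsf21, Tnfrsf19) and 3 were not called (Tnfrsf10b, Ltbr, Tnfsf10). Calls are those of limma's moderated test with a Benjamini-Hochberg adjusted p below 0.05 over all 14154 genes. Across the whole table, 40.2% of tested genes were called, 19.4% higher and 20.8% lower, so calls were common in general. Values of the groups did not overlap in 5 of the 9 genes (Fas, Tnfrsf1b, Tnfrsf12a, Tnfrsf21 and Tnfrsf19), against 37.5% of all tested genes. The median log2 fold change of the 9 was 0.08, and that of all tested genes was 0.00252. Fold changes are siCasp8 minus Scr on the log2(value + 1) scale and run from -0.51 for Tnfrsf19 to 0.78 for Fas.

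**Figure D1:**
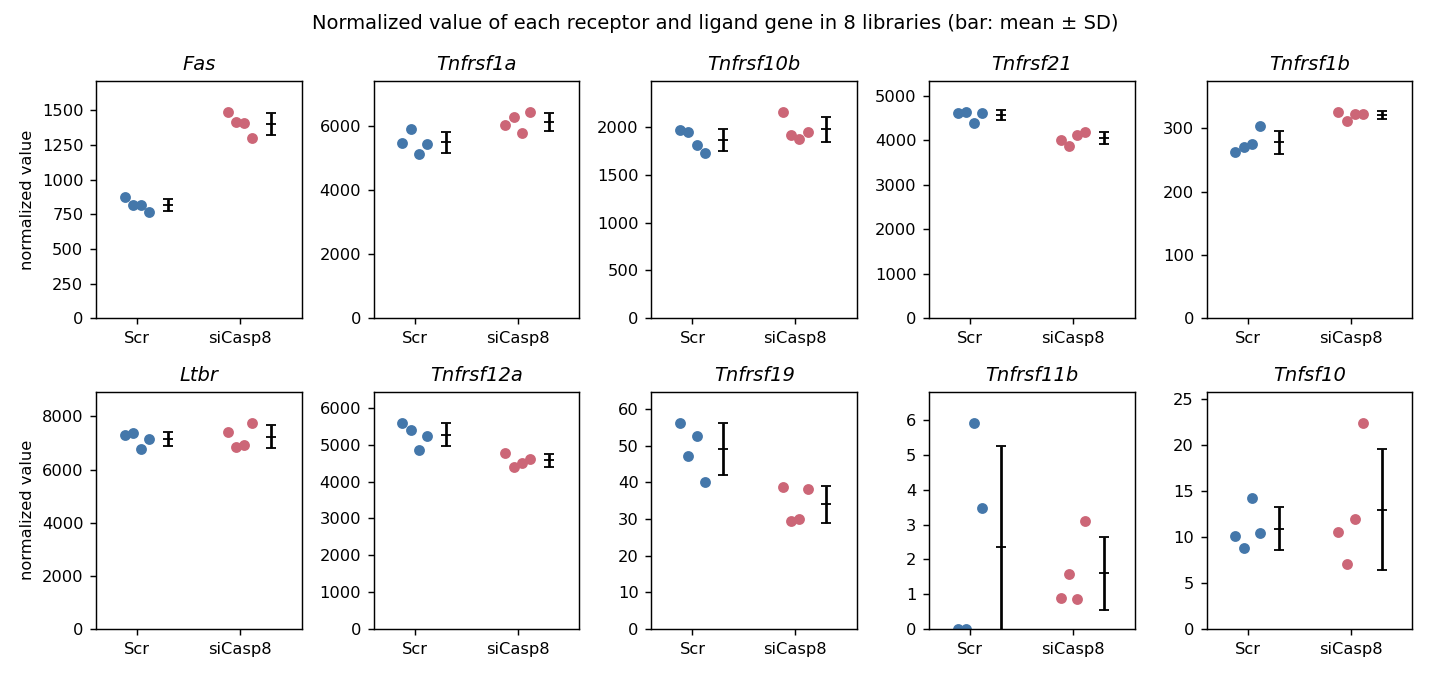
Normalized value (vertical axis, from 0, no unit) of each of the 10 genes in 4 Scr and 4 siCasp8 libraries. Each point is 1 library and the bars are mean ± SD, with the lower Scr bar of Tnfrsf11b reaching past the axis at 0. Fas sits at 768 to 874 in Scr and at 1298 to 1489 in siCasp8, the widest gap relative to its level among the 10 panels.

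The sequences below show the stretch just before the start of the gene that moved most and of both abundant genes that fell. They are the 250 bases upstream of the RefSeq start on GRCm38.p6, 5′ to 3′ on the gene's strand. Capitals mark matches on either strand to the AP-1 motif TGANTCA and to a loose NF-kB pattern, GGG and CC with any 5 bases between. Fas lies at chr19:34290409-34290658 (plus strand), Tnfrsf12a at chr17:23677450-23677699 (minus strand) and Tnfrsf21 at chr17:43016305-43016554 (plus strand).
Fas: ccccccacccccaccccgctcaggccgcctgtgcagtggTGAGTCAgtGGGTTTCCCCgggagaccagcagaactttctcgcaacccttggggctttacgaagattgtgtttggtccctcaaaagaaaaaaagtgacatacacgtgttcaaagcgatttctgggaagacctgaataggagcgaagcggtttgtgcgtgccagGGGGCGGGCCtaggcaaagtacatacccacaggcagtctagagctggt
Tnfrsf12a: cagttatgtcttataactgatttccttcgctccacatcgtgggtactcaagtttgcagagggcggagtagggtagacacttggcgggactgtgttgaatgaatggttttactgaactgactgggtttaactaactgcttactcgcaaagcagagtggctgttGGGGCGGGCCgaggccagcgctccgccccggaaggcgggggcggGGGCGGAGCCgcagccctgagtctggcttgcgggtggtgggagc
Tnfrsf21: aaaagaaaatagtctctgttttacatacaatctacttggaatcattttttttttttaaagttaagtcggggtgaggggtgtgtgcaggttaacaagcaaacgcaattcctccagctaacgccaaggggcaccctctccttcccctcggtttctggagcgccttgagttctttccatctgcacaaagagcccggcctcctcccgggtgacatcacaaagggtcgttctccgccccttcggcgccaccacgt

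The Fas stretch held an AP-1 match at position -211 (first base, counted from the start). A match to the NF-kB pattern on both strands followed at -202, and a further one at -48 overlapped a GC box (GGGCGG). Tnfrsf12a held 2 matches to the NF-kB pattern, at -88 and -44, both overlapping GC boxes. Tnfrsf21 held none of either, and its single GC box lay at -23. Of 13539 starts of tested genes, 59.4% held the NF-kB pattern in their 250 bases, 4.86% the AP-1 motif and 55.1% the GC box. Among the 8 genes of the family set with a RefSeq entry, Fas alone held the AP-1 motif. Tnfrsf1a, Tnfrsf1b and Ltbr held the NF-kB pattern too, while Tnfrsf19 and Tnfsf10 did not. GC content of the stretch was 56.4% for Fas, 58.8% for Tnfrsf12a and 50.4% for Tnfrsf21, all below the median of 59.2% over all those starts. A match is a run of letters and says nothing about binding.

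Among the death-domain receptors, Fas, the receptor of Fas ligand, moved most. Its gene spans chr19:34290666-34327772 on GRCm38. Fas values were 874, 814, 817 and 768 in Scr replicates 1 to 4 and 1489, 1416, 1411 and 1298 in siCasp8 replicates 1 to 4. Every siCasp8 culture was above every Scr culture by more than the spread within either group. The mean went from 818 ± 43.6 to 1404 ± 78.6 (SD, n = 4 each). The log2 fold change was 0.78 (SE 0.0583, 95% interval 0.65 to 0.90, limma adjusted p = 7.60e-07), and the exact two-sided permutation test gave 0.0286, the smallest p it allows. Its absolute change exceeded that of 93.8% of tested genes. Fas was called in all 19 alternative analyses, with log2 fold changes of 0.75 to 0.90.

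Tnfrsf1a, the main TNF receptor of hepatocytes, changed far less. Its values were 5499, 5922, 5149 and 5444 in Scr replicates 1 to 4 and 6047, 6285, 5788 and 6455 in siCasp8 replicates 1 to 4. The groups overlapped, because Scr replicate 2 exceeded siCasp8 replicate 3. Tnfrsf1a was called higher by 0.16 (SE 0.0477, 95% interval 0.06 to 0.26, limma adjusted p = 0.0183), while the exact two-sided permutation p was 0.0571. The call was lost with depth as a covariate (limma adjusted p = 0.148), without the variance trend (0.0556), and without siCasp8 replicate 2 (0.0549) or siCasp8 replicate 4 (0.0581).

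Tnfrsf10b, the death-inducing TRAIL receptor of the mouse, was not called. It stood at 1973, 1945, 1810 and 1725 in Scr replicates 1 to 4 and at 2160, 1918, 1876 and 1951 in siCasp8 replicates 1 to 4. The 2 ranges overlapped broadly. The difference was 0.08 with a 95% interval of -0.04 to 0.21 (limma adjusted p = 0.269), so a change as large as that of Fas lies outside the interval. Only when libraries were scaled to a common upper quartile was it called (0.19, limma adjusted p = 0.0153). Of its 31-base words, 11.4% also occur in transcripts of other genes in GENCODE, more than for any other of the 10 genes (at most 1.48%), and how such reads were split is not given in the sources used here.

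Tnfrsf21, also named death receptor 6, was lower in siCasp8. Its values were 4628, 4641, 4403 and 4609 in Scr replicates 1 to 4 and 4000.3, 3878, 4129 and 4198 in siCasp8 replicates 1 to 4. All siCasp8 cultures lay below all Scr cultures. The log2 fold change was -0.17 (SE 0.0374, 95% interval -0.26 to -0.09, limma adjusted p = 0.00259). With the common upper quartile it was -0.07 (limma adjusted p = 0.174), and with depth as a covariate the adjusted p was 0.0921, so neither kept the call.

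**Figure D2:**
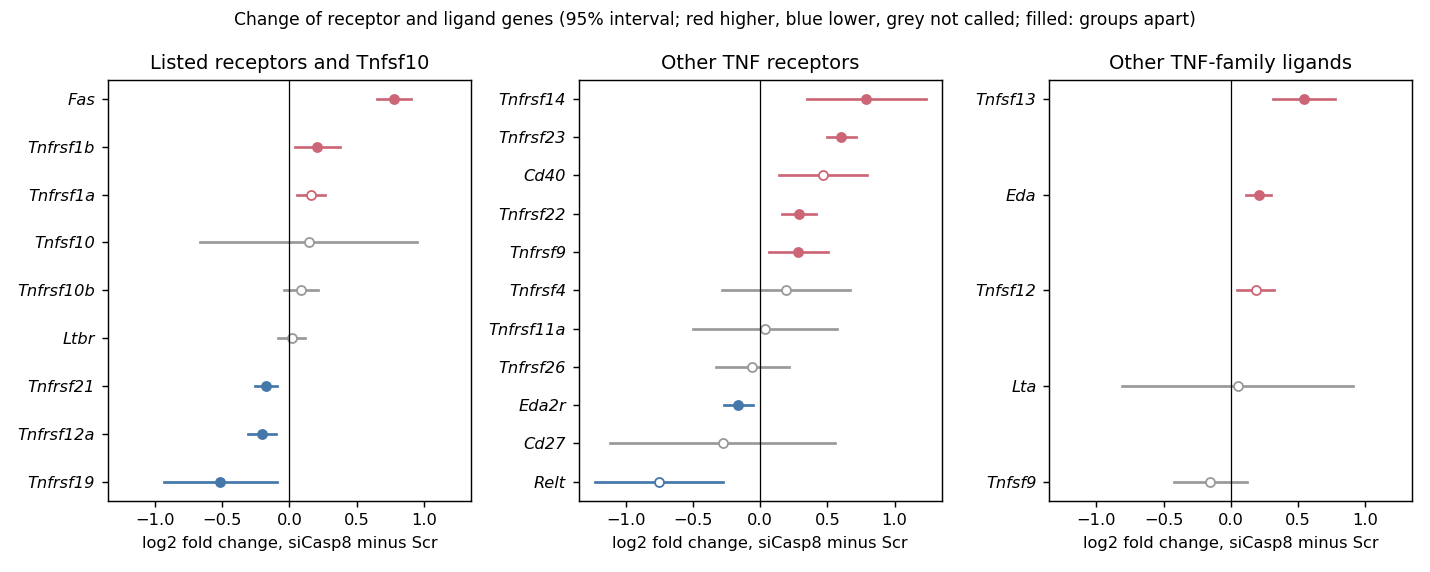
Log2 fold change (siCasp8 minus Scr, log2(value + 1) scale) of the tested genes of the set and of the other tested receptors and ligands of the superfamily, with 95% intervals from limma. Red is called higher, blue called lower and grey not called, and filled points have groups that do not overlap. Fas stands at 0.78 and its interval of 0.65 to 0.90 is well clear of 0, while Ltbr lies at 0.02.

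Among the receptors without a death domain, Tnfrsf1b, the second TNF receptor, was low in these cells. It was 262, 271, 276 and 305 in Scr replicates 1 to 4 and 326, 312, 324 and 323 in siCasp8 replicates 1 to 4. The groups did not overlap, and the Scr library closest to siCasp8 was replicate 4, the deepest of its group. The log2 fold change was 0.21 (SE 0.0772, 95% interval 0.04 to 0.38, limma adjusted p = 0.0486). The call held in 7 of 19 alternatives and was lost in 7 of the 8 analyses that left out 1 library, all but that without Scr replicate 4.

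Tnfrsf12a, the receptor of the cytokine TWEAK (Tnfsf12), was lower in siCasp8. It was 5600.1, 5406, 4864 and 5239.6 in Scr replicates 1 to 4 and 4781, 4388, 4509 and 4624 in siCasp8 replicates 1 to 4. No siCasp8 culture reached the lowest Scr culture, and the siCasp8 mean was 86.7% of the Scr mean. The log2 fold change was -0.20 (SE 0.0464, 95% interval -0.31 to -0.10, limma adjusted p = 0.00373). It was -0.10 with the common upper quartile (limma adjusted p = 0.0960) and lost its call with depth as a covariate too (0.230).

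Ltbr, the lymphotoxin beta receptor, showed no call. It was 7300, 7357, 6770 and 7156 in Scr replicates 1 to 4 and 7395, 6845, 6937 and 7763 in siCasp8 replicates 1 to 4. The ranges overlapped, with siCasp8 replicates 1 and 4 above the highest Scr value. The difference was 0.02, with a 95% interval of -0.08 to 0.12 (limma adjusted p = 0.803). Ltbr and Tnfrsf1a lie on chromosome 6 with starts 35.5 kb apart on opposite strands, and whether their changes differ was not tested.

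Tnfrsf19, also called TROY, was a gene of low level. It was 56.3, 47.2, 52.6 and 40.0 in Scr replicates 1 to 4 and 38.7, 29.4, 30.0 and 38.1 in siCasp8 replicates 1 to 4. The groups were apart by the small step from 40.0 to 38.7. The log2 fold change was -0.51 (SE 0.192, 95% interval -0.93 to -0.10) with a limma adjusted p of 0.0499. It was called in 4 of 18 alternatives, and of the 8 analyses that left out 1 library the call held only without Scr replicate 4.

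The soluble decoy receptor Tnfrsf11b, known as osteoprotegerin, binds TRAIL and RANKL. It was listed at 0 in Scr replicates 1 and 2, at 5.93 and 3.48 in Scr replicates 3 and 4, and at 0.877, 1.57, 0.856 and 3.10 in siCasp8 replicates 1 to 4. 1 read was worth 0.773 to 1.47 in these libraries, so all of these values amount to a handful of reads. A fit without the filter on low values gave 0.06 with a 95% interval of -1.28 to 1.40, and a difference was not detectable at this depth.

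Tnfsf10, the ligand TRAIL, was scarcely present either. It was 10.1, 8.84, 14.3 and 10.4 in Scr replicates 1 to 4 and 10.5, 7.05, 11.99 and 22.5 in siCasp8 replicates 1 to 4. The groups overlapped, and siCasp8 replicate 4 alone lay above the rest. The difference was 0.14 with a 95% interval of -0.67 to 0.95 (limma adjusted p = 0.797), too wide to show or exclude a change of moderate size.

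Levels of the 10 genes were compared per kb of the longest coding transcript in GENCODE. In Scr, Tnfrsf12a was highest at 5363 per kb, followed by Ltbr at 3391, Tnfrsf1a at 2553 and Tnfrsf21 at 1260.1. Tnfrsf10b at 586 and Fas at 553 per kb overlapped in Scr, so their order was not resolved. Tnfrsf1b at 72.9, Tnfrsf19 at 12.1, Tnfsf10 at 2.18 and Tnfrsf11b at 0.835 per kb formed the low end, and the last pair overlapped. All other neighbours in the order were apart in their ranges. In siCasp8, Fas at 948 per kb (877 to 1005) was above Tnfrsf10b at 622 per kb (590.2 to 679). This order depends on the transcript length assumed: with the mean length of the coding transcripts, a choice made after seeing the data, Scr levels were 4812 per kb for Tnfrsf1a, above Ltbr, and 718 per kb for Fas, above Tnfrsf10b.

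**Figure D3:**
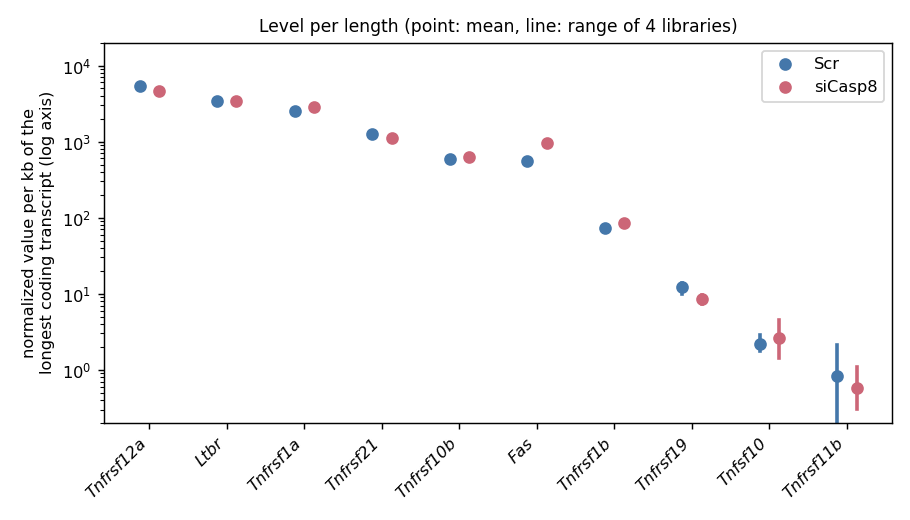
Normalized value per kb of the longest coding transcript (log axis) for the 10 genes, ordered by the Scr mean. Points are means and lines the range of 4 libraries, often shorter than the point, and the line of Tnfrsf11b in Scr runs to the lower edge because 2 libraries are at 0. Fas is level with Tnfrsf10b in Scr (553 and 586 per kb) and above it in siCasp8 (948 and 622 per kb).

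Ratios of 2 genes within a library were taken as the log2 of both values after adding 1. For abundant genes they hardly depend on how libraries were scaled, but for Tnfrsf11b and Tnfsf10 the added 1 weighs heavily. The 5 pairs were compared, so each exact p is given with its Benjamini-Hochberg value over the 5. The log2 ratio of Fas to Tnfrsf10b, both death receptors, was -1.17, -1.26, -1.15 and -1.17 in Scr replicates 1 to 4 and -0.54, -0.44, -0.41 and -0.59 in siCasp8 replicates 1 to 4. Every siCasp8 ratio was nearer to 0 than every Scr ratio, by 0.69 on average (exact two-sided permutation p = 0.0286, adjusted 0.0714). The log2 ratio of Ltbr to Tnfrsf12a went from 0.44 ± 0.0399 to 0.66 ± 0.0589 (SD, n = 4 each), again without overlap (exact p = 0.0286, adjusted 0.0714). At 4 against 4, 0.0286 is the smallest p the design allows. With only these 2 of the 5 pairs at that p, neither passes 0.05 after adjustment.

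The other 3 ratios overlapped between the groups. That of both TNF receptors, Tnfrsf1a to Tnfrsf1b, differed by -0.05 (exact permutation p = 0.514, adjusted 0.857). That of the TRAIL receptor to its ligand, Tnfrsf10b to Tnfsf10, differed by -0.06 (exact permutation p = 0.886, adjusted 0.943). That of the decoy to the ligand, Tnfrsf11b to Tnfsf10, differed by -0.08 (exact permutation p = 0.943, adjusted 0.943).

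**Figure D4:**
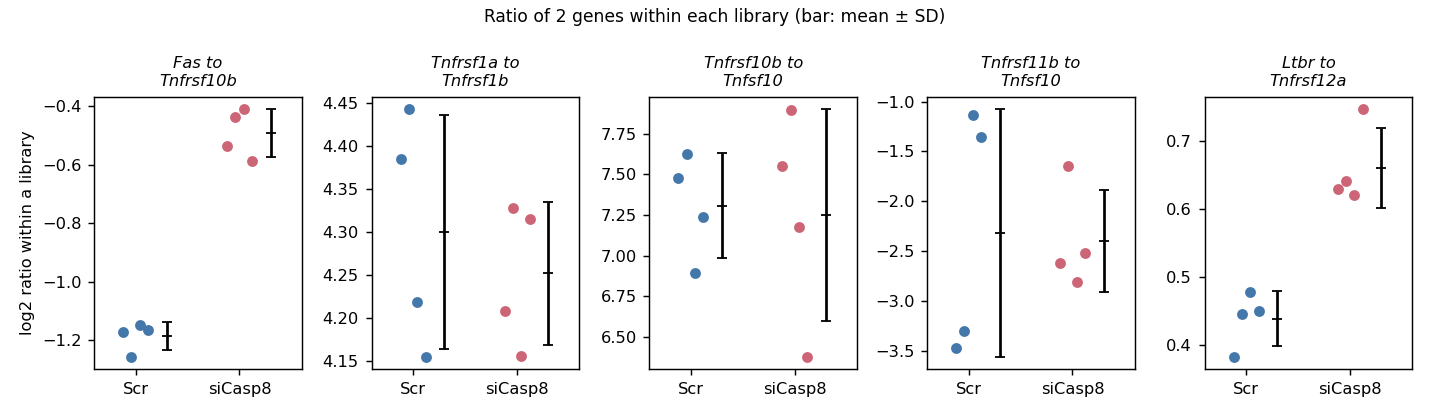
Log2 ratio of 2 genes within each library for 5 pairs, in 4 Scr and 4 siCasp8 libraries. Points are libraries, bars are mean ± SD, and each panel has its own axis that does not start at 0. The ratios of Fas to Tnfrsf10b (-1.19 and -0.49 on average) and of Ltbr to Tnfrsf12a (0.44 and 0.66) separate the groups, and the other 3 overlap.

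Of 19 other receptors of the superfamily, 11 were tested, with 5 called higher and 2 lower beside the 19.4% and 20.8% of all tested genes. Their median log2 fold change was 0.19. Tnfrsf23 and Tnfrsf22, known as mouse decoy receptors for TRAIL, were among the 5. Tnfrsf23 was 3152, 3027, 3036 and 2965 in Scr replicates 1 to 4 and 5117, 4639.9, 4474 and 4306 in siCasp8 replicates 1 to 4. All siCasp8 values were higher, with a log2 fold change of 0.60 (limma adjusted p = 1.80e-06). Tnfrsf22 went from 5241 ± 380 to 6410 ± 421 (SD, n = 4 each), a change of 0.29 (limma adjusted p = 0.00152). These 2 genes share 31-base words, 25.5% of those of Tnfrsf22 and 26.6% of those of Tnfrsf23, so the split of reads between them is uncertain. Their sum does not depend on the split between these 2, and it went from 8285 ± 440 to 11044 ± 736 (SD, n = 4 each) with no overlap (exact two-sided permutation p = 0.0286). Words shared with any other gene make up 38.5% of those of Tnfrsf22, so the sum still depends on how reads were split with genes outside the pair. The third gene of that cluster on chromosome 7, Tnfrsf26, stood at 122 and 118 and was not called (-0.06, limma adjusted p = 0.753).

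Tnfrsf14, the receptor of LIGHT, was 50.5, 94.6, 85.2 and 104 in Scr replicates 1 to 4 and 145, 140, 117 and 162 in siCasp8 replicates 1 to 4. The groups did not overlap and the log2 fold change was 0.79 (limma adjusted p = 0.00824), but it was lost with depth as a covariate (0.470). Tnfrsf9, also called 4-1BB, was called higher at 0.28 (limma adjusted p = 0.0383), and Cd40 at 0.47 (0.0248) with groups that overlapped. The calls of Tnfrsf9 and Cd40 held in 11 and 14 of 19 alternatives. Relt fell by 0.75 on the log2 scale from a mean of 86.4 to 52.9 (limma adjusted p = 0.0156, groups overlapping). Eda2r, the receptor of an ectodysplasin isoform, fell by 0.16 on the log2 scale from 2923 ± 190 to 2611 ± 76.4 (SD, n = 4 each, limma adjusted p = 0.0185). Relt and Eda2r lost their calls with depth as a covariate (limma adjusted p = 0.239 and 0.574). Tnfrsf4, Tnfrsf11a and Cd27 had means of 31.7, 59.7 and 11.6 in Scr and were not called.

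Ligands of the superfamily were mostly low, and 5 of 17 reached the mean needed for the test, 3 called higher and none lower (19.4% and 20.8% of all tested genes). Fasl, the ligand of Fas, reached at most 4.84 in any library and Tnf at most 6.46, and neither was tested. Tnfsf13, also called APRIL, was 146, 181, 182 and 171 in Scr replicates 1 to 4 and 224, 240.3, 252 and 277 in siCasp8 replicates 1 to 4. Its groups were apart, with a log2 fold change of 0.55 (limma adjusted p = 0.00137, and 0.0975 with depth as a covariate). Eda, ectodysplasin, rose by 0.21 (limma adjusted p = 0.00253, and 0.103 with depth), and Tnfsf12, the ligand of Tnfrsf12a, by 0.19 (0.0353) with overlapping groups. The call of Tnfsf12 held in 12 of 19 alternatives and in 3 of the 8 analyses that left out 1 library, and with depth the adjusted p was 0.107. Tnfsf12 and Tnfsf13 are neighbours joined by the readthrough gene Tnfsfm13, which had a log2 fold change of 0.74 (limma adjusted p = 2.75e-06) and was named after its values were seen. Words shared with other genes make up 47.4% of those of Tnfsf12 and 58.4% of those of Tnfsf13, so their separate values are uncertain. Lta and Tnfsf9 were not called.

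Downstream of the receptors, 25 of 26 adaptors and ubiquitin enzymes were tested, of which 1 was called higher and 7 lower, beside 19.4% and 20.8% of all tested genes. Their median log2 fold change was -0.10. Tank, an adaptor bound to TRAF proteins, fell from 1672 ± 130 to 1153 ± 34.8 (SD, n = 4 each), a log2 fold change of -0.53 (limma adjusted p = 1.41e-05). Tnfaip3, the ubiquitin-editing brake on NF-kB also called A20, went from 4734 ± 332 to 3512 ± 163 (SD, n = 4 each), or -0.43 (limma adjusted p = 3.97e-05). Cyld, a deubiquitinase that restrains the same pathway, changed by -0.35 (limma adjusted p = 5.01e-05). Groups of these 3 genes did not overlap, and each call held in all 19 alternatives. Fadd, the adaptor between Fas and caspase-8, went from 1038 ± 41.7 to 848 ± 43.0 (SD, n = 4 each), or -0.29 (limma adjusted p = 0.00122). It was named after its values were seen, and its call in the 19 alternatives was not examined. Traf2, an adaptor of several receptors of the family, was the one called higher (0.22, limma adjusted p = 0.00566, and 0.0508 with depth as a covariate).

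Of the 11 genes of the NF-kB core, 2 were called lower and none higher, beside 20.8% and 19.4% of all tested genes, with a median of -0.03. Nfkb1, which encodes the p105 and p50 proteins, fell from 7405 ± 192 to 5716 ± 177 (SD, n = 4 each), or -0.37 (limma adjusted p = 4.68e-06). Ikbkg, the regulatory subunit of the IkB kinase, changed by -0.20 (limma adjusted p = 0.00885, and 0.172 with depth as a covariate). Among 7 genes of receptor shedding, which cut receptors off the cell surface or control the proteases that do, 2 were called higher and 1 lower. None of the 7 had groups that did not overlap, against 37.5% of all tested genes. All 5 lists together held 59 tested genes, with 11 called higher, 12 lower and 17 with no overlap, and a median of -0.01. Over all tested genes these shares were 19.4%, 20.8% and 37.5%, so the calls of the lists together sat near the background.

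**Figure D5:**
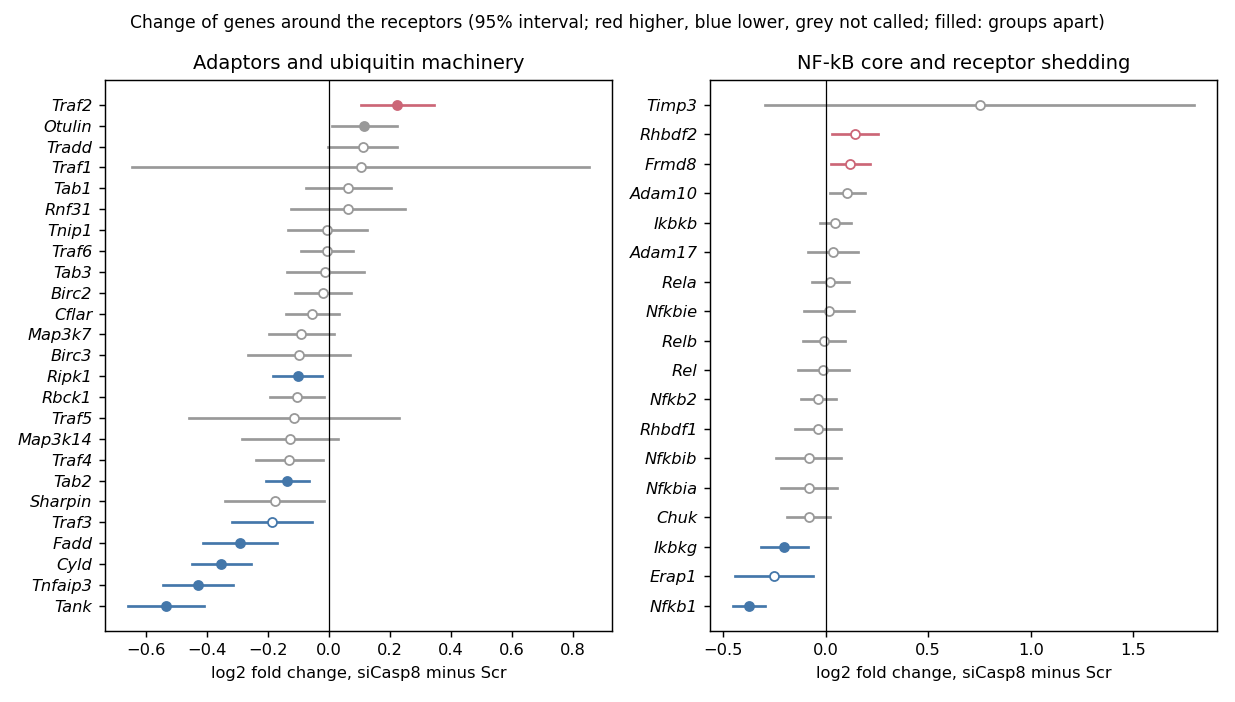
Log2 fold change (siCasp8 minus Scr) with 95% intervals for the tested adaptors and ubiquitin enzymes (left) and for the NF-kB core and shedding genes (right). Red is called higher, blue called lower, grey not called, and filled points have groups that do not overlap. Tank (-0.53), Tnfaip3 (-0.43) and Cyld (-0.35) stand at the bottom left, and Nfkb1 (-0.37) at the bottom right.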

How the data were processed

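Poly-A RNA of 8 AML12 libraries, 4 Scr and 4 siCasp8, was compared; groups come from the titles in the labels. The authors deposited 1 table of normalized signal per gene symbol, which per its name holds kallisto estimates normalized with DESeq2. The submitters' processing notes name kallisto 0.44.0 and DESeq2; the annotation and the summing of transcripts to genes are not given in the sources used here. Depth was estimated from the spacing of low values, and whole reads were not recovered, so no count model was used.

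Genes with a mean of at least 10 were tested with limma 3.58.1 in R 4.3.3 on log2(value + 1), with a variance trend and Benjamini-Hochberg adjustment over 14154 genes. On that scale, folds of low genes come out too small. Differences between the group means of single genes, of ratios and of depth were tested by exact two-sided permutation of the libraries, with 70 arrangements. The script was tested on simulated data. Alternatives covered pseudocount, filter, scaling, variance trend, depth as a covariate, a replicate block and leaving out each library.

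The 10 genes and all lists were chosen with earlier results of these data known. Named are the 10 genes and Casp8. From each pathway list come the 3 called genes with the largest changes in each direction among those without overlap, and the other receptors and ligands with a mean of at least 10. Marker genes come from lists, and other genes outside this rule are said to be so or given as levels only. Positions and transcripts come from GENCODE on GRCm38, a build among those in the notes, and upstream sequences from RefSeq.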

Additional observations from a re-analysis of the deposited data

Results flagged for a closer look

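Of 76 groups of 4 values examined (each named gene or ratio in each group), 6 held 1 library that stood apart from the other 3 by a gap above Dixon's 95% critical value, and chance alone gives about 1 in 20. In Scr these were Tnfrsf21 in replicate 3 (4403), Eda in replicate 1 (1173) and Tnfrsf4 in replicate 4 (42.8). In siCasp8 they were Cyld in replicate 3 (3602.5), Tnfsf9 in replicate 2 (219.7) and the log2 ratio of Ltbr to Tnfrsf12a in replicate 4 (0.75).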

How the results depend on the processing

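Fas, Casp8, Tnfrsf22, Tnfrsf23, Tank, Tnfaip3, Cyld and Nfkb1 kept direction and call in all 19 alternatives, and no result that was called changed direction. With estimated depth as a covariate, which moves with the groups, 2615 genes were called (1206 higher and 1409 lower) against 5689. Of the 9 tested receptor and ligand genes, 1 was then higher and 0 lower, and of the pathway genes 3 were higher and 4 lower. The log2 ratio differences became 0.10 for Tnfrsf1a to Tnfrsf1b and -1.66 for Tnfrsf11b to Tnfsf10. Scaling to a common upper quartile moved the median of all genes by 0.10 and gave 4471 genes higher and 1665 lower, so that 72.9% of calls were higher against 48.1%. It left 0 of the 9 genes and 6 pathway genes lower. Without the variance trend 7 pathway genes were higher, beside 2493 of all tested genes (2739 with the trend). Leaving out 1 library at a time gave 1 to 3 of the 9 genes higher and 6 to 11 pathway genes higher. Over all tested genes, these fits called 2264 to 2751 higher. The 1 was reached without siCasp8 replicate 2 or 4, and the 6 without siCasp8 replicate 4. The cause of these changes was not tested.

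With the replicate number as a block, 6020 genes were called, and Tnfrsf1b (limma adjusted p = 0.0707) and Tnfrsf19 (0.0739) were not. Same-numbered libraries correlated at 0.0785, 0.0442, 0.169 and 0.0554, too weak to treat the numbers as pairs, although each library correlated best with its own number. Depth limits Tnfrsf11b and Tnfsf10, whose values correspond to few reads. Tnfrsf19 was less low, at 29.4 to 56.3 with 1 read worth 0.773 to 1.47. The part of depth in its weak call was not tested, apart from the fit with depth as a covariate (limma adjusted p = 0.634).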

Other observations

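The genes around Fas and the decoy receptors were looked at after their values were seen. Those around Ltbr were examined too, with calls in both directions, and are not listed. Across the whole table, 40.2% of tested genes were called. Near Fas on chromosome 19, Ch25h, which makes 25-hydroxycholesterol, starts 184.5 kb from the Fas start. It had a log2 fold change of -1.37 (limma adjusted p = 0.000917) at low means of 30.3 in Scr and 11.2 in siCasp8. Lipa, the lysosomal acid lipase, whose start lies 236.8 kb away, was called lower (-0.12, limma adjusted p = 0.0209), and Stambpl1, a deubiquitinase, was not called. Near the cluster of Tnfrsf22, Tnfrsf23 and Tnfrsf26 on chromosome 7, Slc22a18, a transporter, rose from a mean of 514 to 1241 (1.27, limma adjusted p = 5.30e-08). Mrgpre (0.30, limma adjusted p = 0.000468) and Nadsyn1 (0.25, 0.0247) were called higher there and Nap1l4 (-0.11, 0.0140) lower, while Cars, Phlda2, Osbpl5 and Dhcr7 were not called.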
